A study of Homo sapiens with 6 samples.

Results

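The 10 genes described here are core parts of transforming growth factor beta (TGF-beta) signalling, measured in PC3 prostate cancer cells with and without knockdown of TTC3. They are the ligands TGFB1 and TGFB2, the receptor TGFBR2, the signal carriers SMAD3, SMAD4 and SMAD7, the ubiquitin ligases SMURF1 and SMURF2, and the targets THBS1 and TGFBI. They were taken by symbol from a table of 62700 genes, in which each matched 1 row, and all 10 were among the 24325 genes with enough counts to test. PC3 is an established human prostate cancer line, and both groups were cultured in the same medium with serum. The control group carried an shRNA labelled shNC and is given the genotype WT, and the other group carried an shRNA labelled shTT3, called TTC3 shRNA here, and is given the genotype TTC3 knockdown. For each group 3 libraries were made, from total RNA after removal of ribosomal RNA. The labels do not say whether the libraries came from separate cultures, whether the cells were 1 clone, or which TTC3 sequence was targeted, so each p-value reflects the spread among the 3 libraries of a group, and that spread may be technical only.

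TGF-beta ligands are secreted in a latent form, and once released they bind the receptor TGFBR2, which recruits and activates TGFBR1. The active receptor phosphorylates SMAD2 and SMAD3, which join SMAD4 and enter the nucleus to switch target genes on or off. SMAD7 and the SMURF ligases restrain the pathway by acting on receptors and SMADs. In prostate epithelium the pathway is known as a brake on growth in normal cells and a promoter of invasion in advanced cancer. TTC3 encodes a ubiquitin ligase whose reported substrates include the kinase AKT and SMURF2. Those reports concern protein, and the values here are RNA levels.

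Library totals ran from 143246356 to 155526861 estimated counts. TTC3 itself fell by 1.81 ± 0.10 on the log2 scale (SE, adjusted p = 5.65e-05, edgeR quasi-likelihood test), with 101609 to 111423 counts in control and 25090 to 34351 counts in knockdown libraries. TTC3 shRNA replicate 1 stood apart from the other libraries of its group, at -77.8 on the second principal component against 19.1 and 44.3. Mitochondrial genes took 6.29% of counts in that library, 3.73% and 3.54% in TTC3 shRNA replicates 2 and 3, and 5.29% to 5.53% in the control libraries. For each doubling of transcript length, log2 CPM shifted by -0.03 in TTC3 shRNA replicate 1, by -0.15 in replicate 2 and by -0.19 in replicate 3, against the control mean. Of 6 epithelial markers, KRT8, KRT18 and KRT19 were each at 139 to 541 CPM (counts scaled to library size, the unit used below) in every library, EPCAM and CDH1 were low, and KRT5 was at 0 counts in every library. CDH1 fell by 1.72 ± 0.19 on the log2 scale, from 1.97 to 0.599 CPM (SE, edgeR adjusted p = 0.000959). KRT18 and EPCAM rose by 0.53 ± 0.16 and 0.32 ± 0.10 (edgeR adjusted p = 0.0392 and 0.0420). For KRT8 and KRT19 the edgeR adjusted p was 0.934 and 0.0653. The prostate markers KLK3 and KLK2 were at 0 counts in every library. The 6 fibroblast markers summed to 34.8 to 37.4 CPM in control and 99.4 to 153 CPM in TTC3 shRNA libraries, of which COL1A1 and PDGFRA made up nearly the whole, while COL1A2, DCN, LUM and PDGFRB stayed under 1 CPM. The 5 immune markers summed to 12.1 to 16.7 and 15.9 to 38 CPM, nearly all from CD68, with CD3E at 0 counts. The 4 endothelial markers summed to 45.5 to 46.8 and 55.2 to 62.2 CPM, mainly KDR, with CDH5 at 0 counts. KDR rose by 0.41 and PECAM1 fell by 0.73 on the log2 scale (edgeR adjusted p = 0.00389 and 0.0119). The part of these markers in the results below was not tested.

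Of the 10 genes, 1 rose and 4 fell in TTC3 shRNA cells at an adjusted p below 0.05. TGFB1 rose, and TGFB2, SMAD3, SMURF1 and THBS1 fell. Among all tested genes 33.6% passed the same test, 15.7% higher and 17.8% lower, so 5 of 10 stands against a wide background of change. Libraries of the 2 groups did not overlap for 6 of the 10 genes, against 50.3% of all tested genes. The median log2 fold change of the 10 was -0.26, against -0.02 over all tested genes. In bulk RNA, fewer cells that express a gene and less RNA per cell cannot be told apart.

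**Figure D1:**
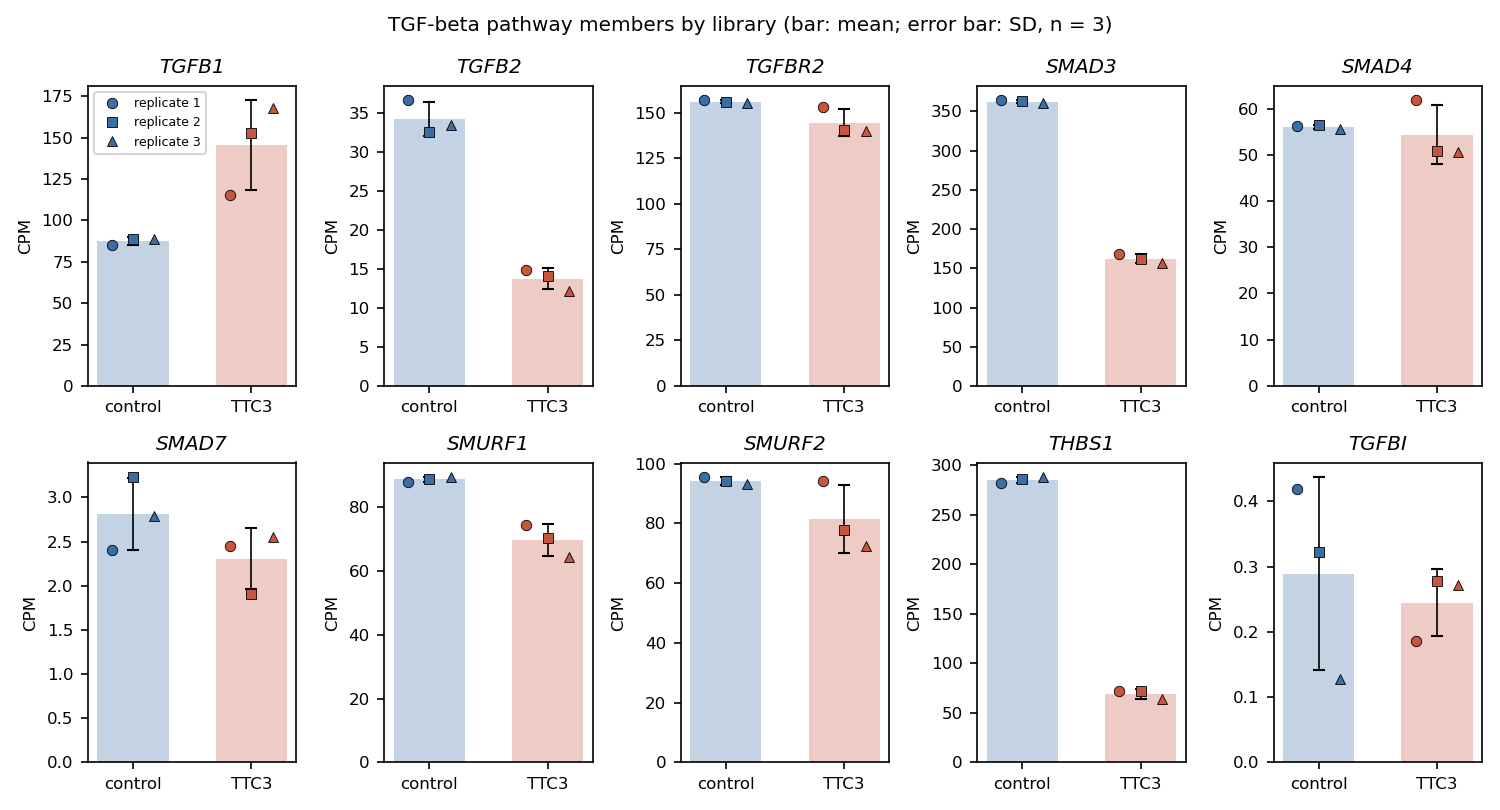
CPM of the 10 genes (y axes, linear, from 0) in control shRNA and TTC3 shRNA cells, with bars for the mean, error bars for the SD (n = 3) and symbols for replicates 1 to 3. THBS1 lies between 282 and 288 CPM in control libraries and between 63.8 and 71.9 CPM in TTC3 shRNA libraries, while TTC3 shRNA replicate 1 lies among the controls for SMURF2 and above them for SMAD4.

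The ligands moved in opposite directions. TGFB1, the most widely expressed of the TGF-beta ligands, was at 84.9, 88.7 and 88.8 CPM in control replicates 1, 2 and 3 and at 115, 153 and 168 CPM in TTC3 shRNA replicates 1, 2 and 3. All 3 TTC3 shRNA libraries lay above all controls, with replicate 1 closest to them. TGFB1 (ENSG00000105329.11, hg38 chromosome 19, 41301587 to 41353911) rose by 0.73 ± 0.13 on the log2 scale, a 1.66-fold change with a 95% interval of 0.42 to 1.05 (SE, adjusted p = 0.00639, edgeR).

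TGFB2, a ligand that needs the co-receptor TGFBR3 for strong binding to TGFBR2, was at 36.6, 32.5 and 33.4 CPM in control libraries. It was at 14.9, 14.1 and 12.2 CPM in TTC3 shRNA libraries, and the groups did not overlap. TGFB2 (ENSG00000092969.12, hg38 chromosome 1, 218346235 to 218444619) fell by 1.32 ± 0.10 in log2 units (SE, edgeR adjusted p = 0.000151), to 40.2% of control.

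TGFBR2, the receptor that binds ligand first, was at 157, 156 and 155 CPM in control libraries and at 153, 140 and 140 CPM in TTC3 shRNA libraries. The groups did not overlap, but the difference was small. TGFBR2 (ENSG00000163513.19, hg38 chromosome 3, 30606502 to 30694142) did not pass the test, with a log2 fold change of -0.11 ± 0.06 and a 95% interval of -0.26 to 0.04 (edgeR adjusted p = 0.210). Without TTC3 shRNA replicate 1 it passed at a similar size (-0.14, adjusted p = 0.00423).

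SMAD3 fell among the SMADs. SMAD3, which carries the signal from the receptor and binds DNA, was at 364, 363 and 361 CPM in control libraries and 168, 162 and 156 CPM in TTC3 shRNA libraries. The values within each group lay close together and the groups lay far apart. SMAD3 (ENSG00000166949.17, hg38 chromosome 15, 67063763 to 67195195) fell by 1.16 ± 0.06 in log2 units (SE, edgeR adjusted p = 3.36e-05), to 44.7% of control.

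SMAD4, the shared partner of the receptor-activated SMADs, was at 56.2, 56.4 and 55.6 CPM in control libraries and 61.8, 50.7 and 50.6 CPM in TTC3 shRNA libraries. Replicate 1 of the TTC3 shRNA group lay above all controls and the other two below them. SMAD4 (ENSG00000141646.16, hg38 chromosome 18, 51028394 to 51085045) had a log2 fold change of -0.04 ± 0.09 with a 95% interval of -0.25 to 0.17 (edgeR adjusted p = 0.742). Without replicate 1 it passed as lower (-0.13, adjusted p = 0.00582).

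SMAD7, the inhibitory SMAD that the pathway itself induces, was scarce in every library. It was at 2.41, 3.23 and 2.79 CPM in control libraries and 2.45, 1.91 and 2.56 CPM in TTC3 shRNA libraries, which overlapped. SMAD7 (ENSG00000101665.10, hg38 chromosome 18, 48919853 to 48952052) had a log2 fold change of -0.29 ± 0.17 with a 95% interval of -0.69 to 0.12 (edgeR adjusted p = 0.243). Its counts ran from 262 to 522 per library, and the log2 fold change was -0.17 without control replicate 2 and -0.17 without TTC3 shRNA replicate 2.

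The SMURF ligases, members of the NEDD4 family that add ubiquitin to SMADs and receptors, differed in whether they passed the test. SMURF1 was at 87.8, 88.9 and 89.4 CPM in control libraries and at 74.4, 70.4 and 64.5 CPM in TTC3 shRNA libraries, with no overlap. SMURF1 (ENSG00000198742.10, hg38 chromosome 7, 99027438 to 99144100) fell by 0.35 ± 0.07 in log2 units (SE, edgeR adjusted p = 0.00907), to 78.7% of control. That call ended narrowly without control replicate 2 (adjusted p = 0.0504) or control replicate 3 (adjusted p = 0.0523), over a range of 0.000124 to 0.0523 across its alternatives.

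SMURF2, the ligase reported as a target of the TTC3 protein, was at 95.6, 94.0 and 93.1 CPM in control libraries. It was at 94.3, 77.7 and 72.5 CPM in TTC3 shRNA libraries, so replicate 1 lay among the controls and the other two below them. SMURF2 (ENSG00000108854.16, hg38 chromosome 17, 64542295 to 64662068) did not pass, with a log2 fold change of -0.21 ± 0.10 and a 95% interval of -0.45 to 0.03 (edgeR adjusted p = 0.15). Without TTC3 shRNA replicate 1 it passed as lower (-0.31, adjusted p = 0.000189), and the number of the 10 genes past the test went from 5 to 8. Leaving out that library also took all genes past the test from 8165 of 24325 to 13739 of 25416. The added calls, which include TGFBR2 and SMAD4, thus came with many more calls among all genes.

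Of the targets, THBS1 was abundant and TGFBI nearly absent. THBS1, thrombospondin 1, a matrix protein that can also release active TGF-beta from its latent complex, was at 282, 286 and 288 CPM in control libraries and 71.9, 71.8 and 63.8 CPM in TTC3 shRNA libraries. THBS1 (ENSG00000137801.11, hg38 chromosome 15, 39581079 to 39599466) fell by 2.04 ± 0.07 in log2 units (SE, edgeR adjusted p = 8.39e-06), 4.12-fold lower and the largest change of the 10 genes. At least a 2-fold fall past the test was seen for 8.55% of all tested genes, a size that THBS1, TGFB2 and SMAD3 reached. TGFBI, a matrix protein whose name records its induction by TGF-beta, held 67, 52 and 19 counts in control libraries and 28, 38 and 39 counts after knockdown. TGFBI (ENSG00000120708.17, hg38 chromosome 5, 136028895 to 136063818) had a log2 fold change of -0.24 ± 0.45 with a 95% interval of -1.29 to 0.81 (edgeR adjusted p = 0.706), so a difference was not detectable here.

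**Figure D2:**
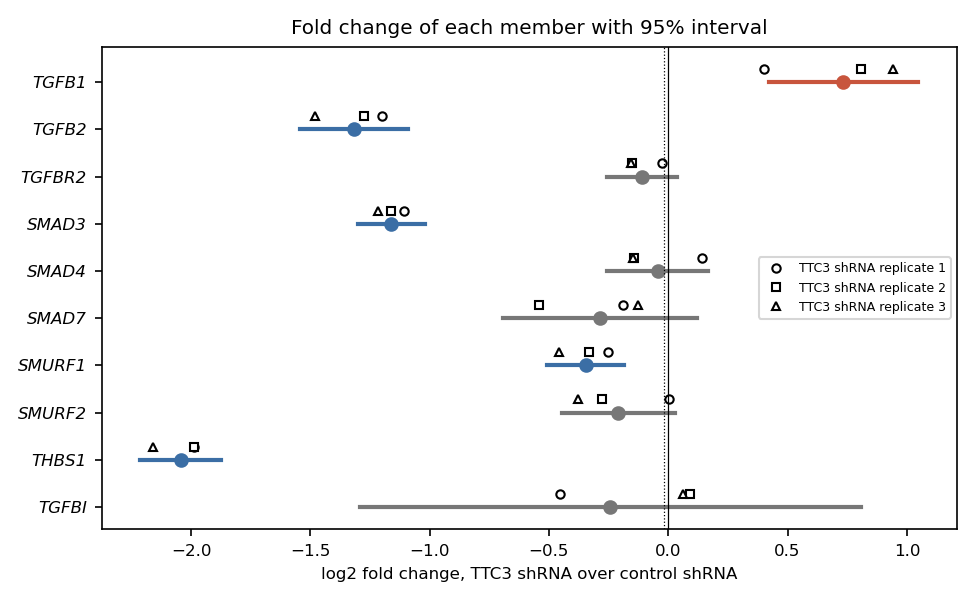
Log2 fold change of TTC3 shRNA over control shRNA (x axis) for the 10 genes (y axis), with filled points for the edgeR estimate, lines for its 95% interval (red higher, blue lower, grey not past the test) and open symbols for each TTC3 shRNA library relative to the control mean. The dotted line marks the median of all tested genes, -0.02. Replicate 1 lies to the right of replicates 2 and 3 for TGFB2, TGFBR2, SMAD3, SMAD4, SMURF1 and SMURF2 and to their left for TGFB1 and TGFBI.

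Ratios within a library do not depend on how libraries were scaled against each other. The log2 ratio of TGFB2 over TGFB1 was -1.36 ± 0.13 in control and -3.39 ± 0.41 in TTC3 shRNA libraries (SD, n = 3 each), a difference of -2.03. SMAD3 over SMAD4 went from 2.69 ± 0.01 to 1.58 ± 0.12, a difference of -1.11. SMAD7 over SMAD3 went from -7.01 ± 0.21 to -6.14 ± 0.24, a difference of 0.88, and TGFBI over THBS1 from -10.0 ± 0.86 to -8.08 ± 0.36, a difference of 1.94. SMURF2 over SMURF1 went from 0.09 ± 0.03 to 0.22 ± 0.11, a difference of 0.13, which was 0.0137 with the length trend removed and 0.0681 without TTC3 shRNA replicate 1. In all 5 ratios the groups did not overlap, which gives p = 0.10 by the exact two-sided permutation test (0.10 after Benjamini-Hochberg adjustment over the 5), the smallest that 3 libraries against 3 allow.

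The order of the 10 genes changed between the groups when levels were set per transcript length (CPM per kilobase of the isoform with the most counts). In control cells SMAD3 was highest at 58.0 ± 0.27 CPM per kilobase (SD, n = 3), followed by THBS1 at 36.7 ± 0.41, TGFBR2 at 33.9 ± 0.16, SMURF2 at 32.3 ± 0.43 and TGFB1 at 31.6 ± 0.81. SMURF1 followed at 15.9 ± 0.15 CPM per kilobase, TGFB2 at 6.88 ± 0.43, SMAD4 at 6.39 ± 0.05, SMAD7 at 0.635 ± 0.093 and TGFBI at 0.103 ± 0.053. Of these neighbours in order, the libraries of SMURF2 and TGFB1 overlapped and no others did. In TTC3 shRNA cells TGFB1 was highest at 52.5 ± 9.79 CPM per kilobase. It was followed by TGFBR2 at 31.4 ± 1.61, SMURF2 at 27.9 ± 3.90 and SMAD3 at 26.0 ± 0.96, among which each pair of neighbours overlapped. SMURF1 at 12.5 ± 0.89, THBS1 at 8.90 ± 0.60, SMAD4 at 6.20 ± 0.73 and TGFB2 at 2.76 ± 0.28 CPM per kilobase came next.

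Transcript estimates were tested over 53805 transcripts, of which 3.99% passed, 1.39% higher and 2.60% lower. Of 22 tested transcripts of the 10 genes, 4 fell and 0 rose. They were the THBS1 transcript ENST00000260356.6 (log2 fold change -2.07 ± 0.08, SE, edgeR adjusted p = 0.00167), the main SMAD3 transcript ENST00000327367.9 (-1.18 ± 0.09, adjusted p = 0.00583) and both TGFB2 transcripts. The longer TGFB2 transcript ENST00000366929.4 fell by 1.68 ± 0.27 (edgeR adjusted p = 0.0373) and the shorter ENST00000366930.9 by 1.29 ± 0.13 (adjusted p = 0.0126), and whether the pair differ was not tested. This count of 4 went to 1 with any 1 control replicate left out, to 2 without TTC3 shRNA replicate 2 or 3 and to 7 without TTC3 shRNA replicate 1. The main TGFB1 transcript ENST00000221930.6 had a log2 fold change of 0.71 ± 0.15 and missed the threshold (edgeR adjusted p = 0.0635), though its groups did not overlap.

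Isoform estimates were unstable for SMURF1. The transcript ENST00000361125.1 held 5240, 2575 and 19 counts in control replicates and 26, 1303 and 18 in TTC3 shRNA replicates, with the other transcript, ENST00000361368.7, taking the rest of the gene count. High and low values occurred in both groups. The TGFBR2 transcripts ENST00000295754.10 and ENST00000359013.4 were at 76.8 ± 8.49 and 80.6 ± 9.02 CPM in control cells (SD, n = 3) and at 67.2 ± 5.97 and 76.3 ± 11.8 CPM after knockdown, and neither passed the test (edgeR adjusted p = 0.423 and 0.811). The minor SMAD7 transcript ENST00000589634.1 held 29, 48 and 14 counts in control libraries and 0 in each TTC3 shRNA library, and missed the threshold (edgeR adjusted p = 0.0552). Since transcripts of a gene overlap in sequence, the split between them is uncertain.

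**Figure D3:**
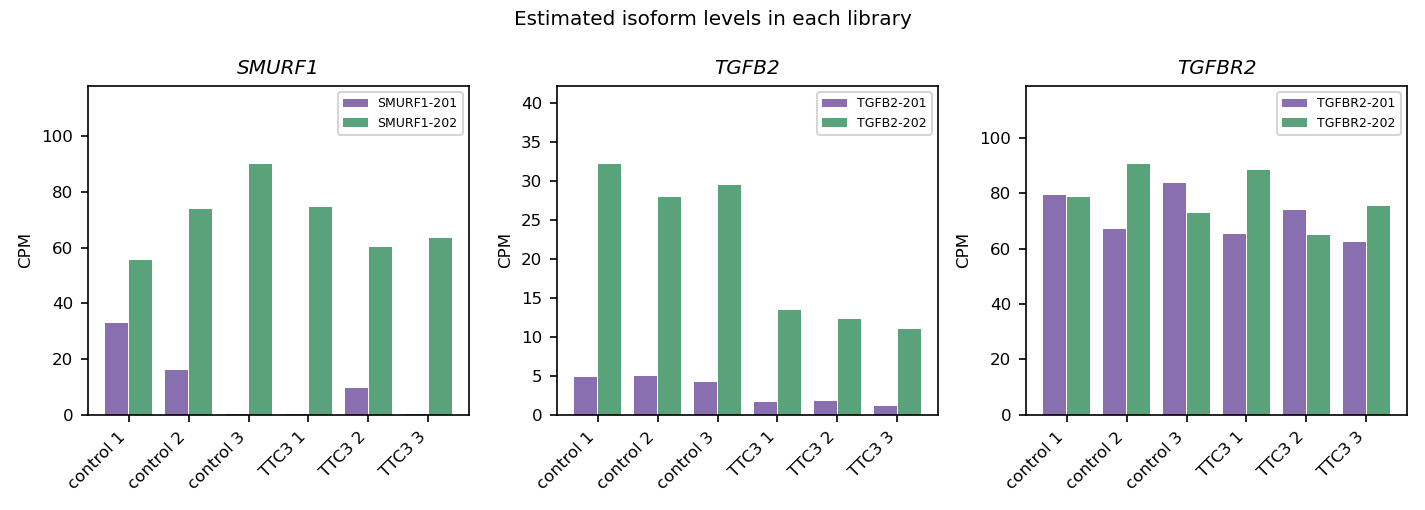
Estimated CPM (y axes) of a pair of transcripts of SMURF1, TGFB2 and TGFBR2 in each of the 6 libraries (x axes). Transcript names follow GENCODE: SMURF1-201 is ENST00000361125.1, SMURF1-202 is ENST00000361368.7, TGFB2-201 is ENST00000366929.4, TGFB2-202 is ENST00000366930.9, TGFBR2-201 is ENST00000295754.10 and TGFBR2-202 is ENST00000359013.4. Both TGFB2 transcripts are lower in all TTC3 shRNA libraries, and the split of SMURF1 varies within each group.

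SMAD3 and THBS1 both lie on chromosome 15, whose genes were lower as a whole in TTC3 shRNA cells. The 854 tested genes there had a median log2 fold change of -0.46, the lowest of 23 chromosomes, with 40.9% of them lower and 2.93% higher. The 10 tested genes nearest to SMAD3, within 412 kb, had a median of -0.63, with 4 lower and 0 higher, and the 10 nearest to THBS1, within 447 kb, a median of -0.88, with 5 lower and 0 higher. Relative to the chromosome median, the log2 fold change was -0.70 for SMAD3 and -1.58 for THBS1. The part of the chromosome in their fall was not tested.

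TGFB2 fell where its 10 nearest tested genes had a median of -0.16 and chromosome 1 a median of -0.05. TGFB1 rose where its 10 nearest had a median of 0.34, with 4 higher and 0 lower, and chromosome 19 a median of 0.09. SMURF1 fell where its 10 nearest had a median of 0.30, with 3 higher and 0 lower. The 10 nearest to SMURF2 had a median of -0.45, with 0 higher and 4 lower, on chromosome 17, where 11.7% of tested genes were lower. The 10 nearest to TGFBR2 had a median of -0.60, with 0 higher and 4 lower, on chromosome 3, where 19.6% were lower. Chromosome 18, which carries SMAD4 and SMAD7, had a median of -0.20.

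**Figure D4:**
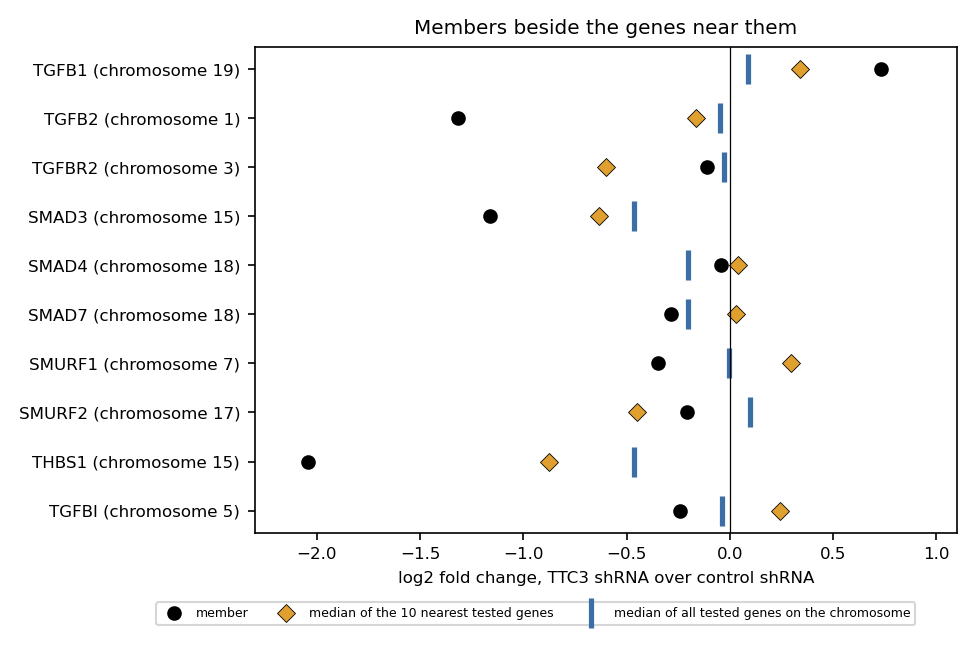
Log2 fold change of TTC3 shRNA over control shRNA (x axis) for each of the 10 genes (black points), the median of its 10 nearest tested genes (diamonds) and the median of all tested genes on its chromosome (blue bars). The bars of chromosome 15, at -0.46 for SMAD3 and THBS1, are the furthest to the left, and both genes lie left of them.

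Some members overlap other genes, chosen here by position alone. THBS1 overlaps the intronic THBS1-IT1, the antisense THBS1-AS1 and the opposite-strand FSIP1, with log2 fold changes of -1.96, -2.22 and -1.16 (edgeR adjusted p = 0.00550, 0.00239 and 0.00408). These were at 0.798, 0.390 and 2.65 CPM in control cells, far below THBS1. On the opposite strand TGFB1 overlaps HNRNPUL1 at 259 CPM and CCDC97 at 23.4 CPM in control cells, which rose by 0.20 and 0.46 on the log2 scale (edgeR adjusted p = 0.0367 and 0.00754). SMURF1 overlaps TRRAP, at 255 CPM in both groups (edgeR adjusted p = 0.999), and SMURF2 overlaps CEP95, which fell by 0.37 (adjusted p = 0.0193). The libraries kept the strand, but whether counting used it is not stated, so reads of such pairs cannot be told apart here.

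The 250 bases before the start of transcription were read from RefSeq (GRCh38.p14) for all 10 genes, and are shown for the 3 genes with the largest falls and for TGFB1, which rose, since these are the genes whose RNA levels differ most. Capitals mark the SMAD box CAGAC (or GTCTG on the other strand), a short sequence that SMAD3 and SMAD4 can bind, and the GC box GGGCGG (or CCGCCC), a site for SP family factors.
THBS1 (GRCh38.p14, chr15:39580829-39581078, plus strand): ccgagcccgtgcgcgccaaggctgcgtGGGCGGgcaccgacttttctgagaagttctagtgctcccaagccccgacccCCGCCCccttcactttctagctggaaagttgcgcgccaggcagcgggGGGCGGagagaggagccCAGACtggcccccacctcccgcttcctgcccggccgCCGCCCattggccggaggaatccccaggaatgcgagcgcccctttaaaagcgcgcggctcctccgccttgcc
TGFB2 (GRCh38.p14, chr1:218345086-218345335, plus strand): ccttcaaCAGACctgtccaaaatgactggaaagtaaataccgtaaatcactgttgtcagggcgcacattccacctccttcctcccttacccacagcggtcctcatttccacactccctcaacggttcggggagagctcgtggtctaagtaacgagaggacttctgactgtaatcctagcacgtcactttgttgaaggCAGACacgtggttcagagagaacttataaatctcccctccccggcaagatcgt
SMAD3 (GRCh38.p14, chr15:67065352-67065601, plus strand): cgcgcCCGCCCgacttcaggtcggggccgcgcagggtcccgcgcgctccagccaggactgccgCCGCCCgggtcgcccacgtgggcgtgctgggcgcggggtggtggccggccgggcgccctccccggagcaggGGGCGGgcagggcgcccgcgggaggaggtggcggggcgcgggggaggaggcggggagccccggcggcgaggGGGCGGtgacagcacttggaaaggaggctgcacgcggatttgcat
TGFB1 (GRCh38.p14, chr19:41353923-41354172, minus strand): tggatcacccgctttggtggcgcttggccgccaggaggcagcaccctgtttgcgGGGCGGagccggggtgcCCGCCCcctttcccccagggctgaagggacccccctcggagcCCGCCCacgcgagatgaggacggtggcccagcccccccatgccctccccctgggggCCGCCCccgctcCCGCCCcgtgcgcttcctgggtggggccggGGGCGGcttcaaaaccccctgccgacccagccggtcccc

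THBS1 held 1 SMAD box, starting 108 bases before the start, and 4 GC boxes, and TGFB2 held 2 SMAD boxes, 243 and 53 bases before the start, and 0 GC boxes. SMAD3 and TGFB1 held 0 SMAD boxes, with 4 and 6 GC boxes. Over the 10 genes, 4 held a SMAD box, against 38% of 35116 promoters of the same length, and 8 held a GC box, against 42.6%. An AP-1 site (TGACTCA or TGAGTCA) was found in 0 of the 10, against 4.20% of promoters. A match describes these letters alone. The RefSeq start lay 899 bases from that of the main TGFB2 transcript, 243 bases from that of SMAD3, and 14 and 11 bases from those of THBS1 and TGFB1. For SMAD7, which held 2 SMAD boxes and 0 GC boxes, it lay 1087 bases away. For SMURF2 it lay 239 bases away, for TGFBI 93, for SMURF1 89, and for TGFBR2 and SMAD4 0. RefSeq gave 5 starts for SMAD3, 3 for SMAD7 and 2 for TGFBR2, of which 1 each was read.

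Other genes of the pathway changed widely and in both directions. Of 120 listed genes 114 were tested, of which 30 rose and 34 fell, 56.1% against the 33.6% of all tested genes. Their median log2 fold change was -0.12, against -0.02 over all tested genes. Both comparisons are descriptions and not tests, because the lists were chosen with earlier results of these data known. By library totals alone, which moved the median of all genes to -0.15, 24 rose and 41 fell.

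Among 8 tested TGF-beta and activin type ligands beside TGFB1 and TGFB2, 2 rose and 1 fell, with a median of -0.39. That median lies between LEFTY1 (-0.57) and INHA (-0.21). These genes, INHBE and MSTN were under 1 CPM in every library and did not pass, so scarce genes set the median. INHBA, the activin A subunit, went from 122 ± 0.699 to 51.6 ± 2.29 CPM (SD, n = 3) and fell by 1.24 ± 0.06 in log2 units (SE, edgeR adjusted p = 2.54e-05). INHBB, the activin B subunit, rose by 0.42 ± 0.08, and the third TGF-beta ligand TGFB3 rose by 0.76 ± 0.10, from 15.9 to 26.8 CPM. INHBB lies on chromosome 2, whose tested genes had a median of 0.27, the highest of 23 chromosomes, with 32.8% higher and 10.5% lower. Relative to that median its log2 fold change was 0.15, and the part of the chromosome in its rise was not tested. NODAL and LEFTY2 had too few counts to test.

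Genes of latency and activation moved in both directions, with 8 of 15 tested genes higher, 5 lower and a median of 0.44. NRROS, which tethers latent TGF-beta, was scarce in both groups, at 0.102 ± 0.029 and 1.49 ± 0.22 CPM (edgeR adjusted p = 0.000114). ITGB8, the integrin subunit that activates latent TGF-beta, went from 56.9 ± 1.44 to 12.7 ± 1.60 CPM, and it fell by 2.17 ± 0.10 on the log2 scale (edgeR adjusted p = 2.29e-05). FBN1, the fibrillin that anchors latent complexes in the matrix, fell by 0.73 ± 0.06. Chosen after their values were seen, the latent TGF-beta binding proteins LTBP1, LTBP2 and LTBP4 rose by 0.40 ± 0.06, 0.69 ± 0.10 and 0.73 ± 0.18, while FURIN, the protease that matures TGF-beta precursors, fell by 0.77 ± 0.11. LTBP3, the other member of that family, did not pass (0.55 ± 0.23, edgeR adjusted p = 0.103), with TTC3 shRNA replicate 1 below all controls and replicates 2 and 3 above them. FBN1 and FURIN lie on chromosome 15, with its median of -0.46, and the part of the chromosome in their fall was not tested. LTBP1 lies on chromosome 2, with its median of 0.27. Relative to that median its log2 fold change was 0.13, and the part of the chromosome in its rise was not tested.

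Of 9 other receptors, 2 rose and 1 fell, with a median of -0.03. TGFBR1, the signalling partner of TGFBR2, fell by 0.35 ± 0.07 on the log2 scale (edgeR adjusted p = 0.0101), from 32.6 ± 0.349 to 25.5 ± 1.83 CPM, a call that ended without control replicate 1 (adjusted p = 0.0540) or control replicate 3 (adjusted p = 0.0543). The activin and BMP receptor ACVR1 rose by 0.44 ± 0.08. It lies on chromosome 2, with its median of 0.27, and relative to that median its log2 fold change was 0.17. The part of the chromosome in its rise was not tested. The co-receptor ENG rose by 1.67 ± 0.18 from a low level of 0.327 ± 0.021 CPM. Of 5 other SMADs, SMAD1, which carries BMP signals, fell by 0.59 ± 0.08 (edgeR adjusted p = 0.00253), and SMAD2, SMAD5, SMAD6 and SMAD9 did not pass. SMAD2, the partner of SMAD3, had a log2 fold change of -0.37 (adjusted p = 0.0728).

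Nuclear partners and corepressors had 1 of 12 genes higher and 4 lower, with a median of -0.19. The corepressor SKI rose by 0.49 ± 0.07 on the log2 scale, and the corepressor TGIF1 fell by 0.71 ± 0.05, from 79.6 ± 0.772 to 48.7 ± 0.887 CPM (edgeR adjusted p = 0.000179). RUNX2, a transcription factor that works with SMADs, fell by 1.81 ± 0.15. SKIL, a SKI relative that the pathway induces, was chosen after its values were seen and fell by 0.78 ± 0.14.

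Of the 7 other NEDD4 family ligases, the relatives of the SMURFs, 1 rose and 1 fell, with a median of -0.19. NEDD4 was at 32.4 ± 1.14 and 15.6 ± 4.07 CPM and fell by 1.05 ± 0.17 on the log2 scale (edgeR adjusted p = 0.00415). It lies on chromosome 15, whose tested genes had a median of -0.46, and the part of the chromosome in its fall was not tested. WWP1 rose by 0.34 ± 0.10 (adjusted p = 0.0394), a call that ended by library totals alone (adjusted p = 0.219), without a filter on low counts (adjusted p = 0.0678) and without control replicate 1, 2 or 3 or TTC3 shRNA replicate 2 (adjusted p = 0.114, 0.120, 0.129 and 0.0841).

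Of 15 regulators of receptors and SMADs, 3 rose and 4 fell, with a median of -0.17. BAMBI, a decoy receptor without kinase activity, went from 9.72 ± 0.432 to 1.75 ± 0.108 CPM and fell by 2.47 ± 0.11 on the log2 scale (edgeR adjusted p = 1.71e-05). FKBP1A, which holds the type I receptor inactive, rose by 0.49 ± 0.06 (by 0.30 with the length trend removed), and TGFBRAP1, a receptor-associated protein, by 0.30 ± 0.06. The TGFBRAP1 call ended by library totals alone (adjusted p = 0.123) and without control replicate 1 or 2 (adjusted p = 0.0556 and 0.0611). TGFBRAP1 lies on chromosome 2, with its median of 0.27, and relative to that median its log2 fold change was 0.04. The part of the chromosome in its rise was not tested.

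Classic targets split into 9 higher and 15 lower of 28 tested genes, with a median of -0.33. CCN1, a matricellular protein, went from 199 ± 3.80 to 48.6 ± 2.24 CPM (SD, n = 3) and fell by 2.04 ± 0.06 on the log2 scale (edgeR adjusted p = 6.79e-06). ANGPTL4, a secreted inhibitor of lipoprotein lipase, went from 56.4 ± 1.1 to 5.34 ± 0.545 CPM and was 10.6-fold lower (edgeR adjusted p = 4.60e-06). Chosen after their values were seen, the matrix genes FN1 and LOXL2 rose by 2.18 ± 0.10 and 0.84 ± 0.12, with FN1, fibronectin, going from 764 ± 8.79 CPM to 3454 ± 459 CPM. FN1 lies on chromosome 2, with its median of 0.27, and relative to that median its log2 fold change was 1.91. The cytokine IL11 rose by 3.30 ± 0.28 from a low level of 0.756 ± 0.229 CPM. The crosslinking enzyme LOX fell by 2.67 ± 0.11, the early response genes JUNB and KLF10 by 1.44 ± 0.21 and 1.17 ± 0.07, and the cell cycle inhibitor CDKN1A by 0.85 ± 0.10. COL1A1, which is also among the fibroblast markers above, rose by 1.99 ± 0.28, and its part in the list's count is 1 of the 9.

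Of 15 genes of the branch that does not use SMADs, 4 rose and 2 fell, with a median of 0.14. ROCK2, a kinase that acts on the cytoskeleton, rose by 0.79 ± 0.10 on the log2 scale (edgeR adjusted p = 0.00183), and the GTPase RHOA that activates it by 0.41 ± 0.07 (adjusted p = 0.00639). Once the length trend was removed, RHOA no longer passed (0.12, adjusted p = 0.114). ROCK2 lies on chromosome 2, with its median of 0.27, and relative to that median its log2 fold change was 0.52. The part of the chromosome in its rise was not tested. The adaptor SHC1 rose by 0.28 ± 0.05, a call that ended by library totals alone (adjusted p = 0.0879) and without control replicate 1 or 2 (adjusted p = 0.0515 and 0.0518).

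**Figure D5:**
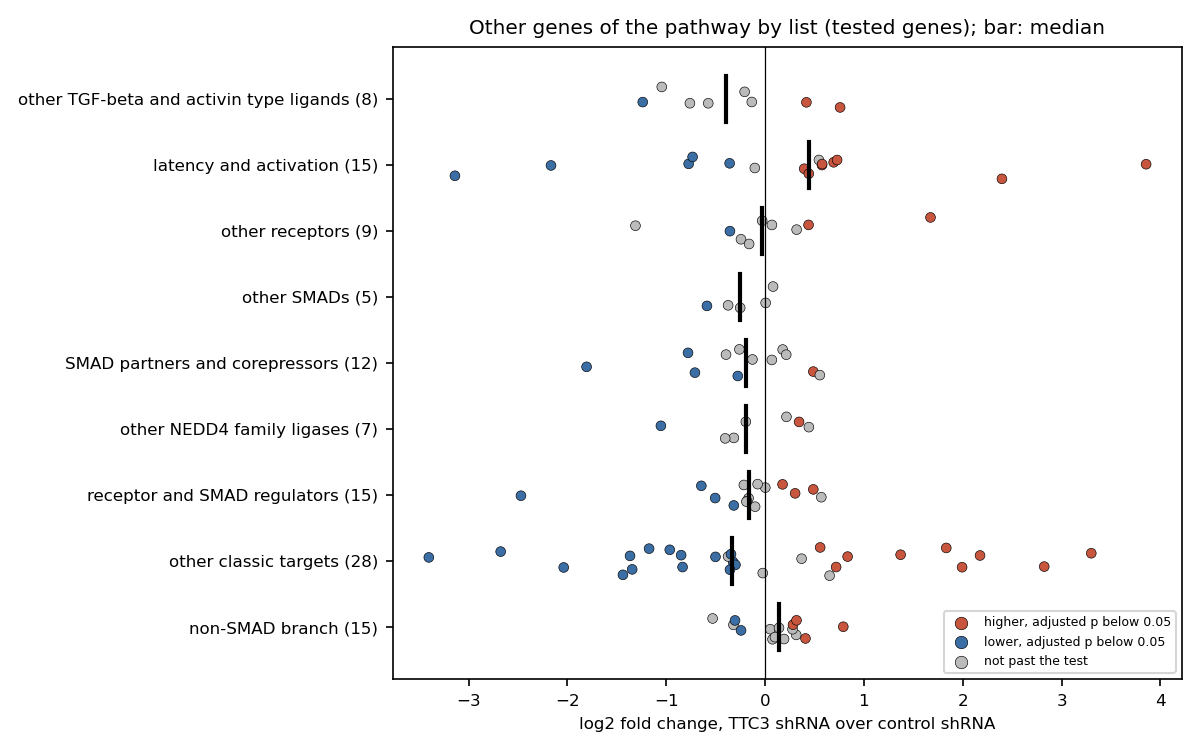
Log2 fold change of TTC3 shRNA over control shRNA (x axis) for the 114 tested genes of the other pathway lists (y axis, with the number tested), each point 1 gene, red where higher, blue where lower and grey where not past the test, with a black bar for the list's median. Classic targets and the latency genes reach furthest to both sides, and medians run from -0.39 for the other ligands to 0.44 for latency and activation. The median of the other ligands lies between LEFTY1 and INHA, both under 1 CPM in every library.

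Outside these lists, the genes with the pattern most like TGFB1 over the 6 libraries, by the root mean square difference of log2 CPM relative to the control mean, were NME4 (0.0206), PSMD9 (0.0236) and FHOD1 (0.0240), which rose by 0.73, 0.77 and 0.71 on the log2 scale. Those most like THBS1 were TUFT1 (0.0429), STC2 (0.0537) and PKIB (0.0825), with log2 fold changes of -2.01, -2.05 and -2.08.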

How the data were processed

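RNA sequencing libraries of PC3 cells were assigned to their groups and numbered by their titles. The authors deposited estimated counts for genes and for transcripts, which are whole numbers and were used without scaling or rounding. Trim Galore, STAR, StringTie and hg38 are named per the submitters' processing notes. Their versions, the annotation release and the strand setting are not stated there.

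Counts were filtered with filterByExpr (about 10 counts in a group, 15 in total), scaled by TMM and tested with edgeR 4.0.16 in R 4.3.3 (glmQLFit, glmQLFTest) over the 6 libraries without a block, at a Benjamini-Hochberg adjusted p below 0.05 over all features. SEs are the log2 fold change divided by the root of F. Log2 CPM used a prior count of 2. Depth was similar between libraries, and precision is limited by their spread, with counting error on top for scarce genes. Counts of replicates of a group differed by 3.85 to 35.5 times sampling noise, so no library was a copy of another. Positions and lengths came from GENCODE 29 on hg38, which held 58207 of 62700 genes and 98286 of 117688 transcripts.

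The members and lists were chosen with earlier results of these data known. Genes named by rule were the 10 members, TTC3 and up to 3 per list by adjusted p. The rule also took the 3 non-members most like the largest rise and fall at a mean of at least 5 CPM. Further genes of the lists, such as LTBP1, FURIN, SKIL, FN1 and LOXL2, were named outside this rule after their values were seen. Of the genes this rule and the marker lists give, a few are not reported here. DESeq2 1.42.0, limma-voom (limma 3.58.1) and other scalings, filters, thresholds and left-out libraries were alternatives. The edgeR procedure was run on simulated counts that had the same spread setting for all genes, no outlying library and no length trend. That check does not cover these traits of the data.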

Additional observations from a re-analysis of the deposited data

How the results depend on the processing

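The 1 rise and 4 falls among the 10 genes were counted alike, 5 in all, with DESeq2 size factors, library totals, scaling without mitochondrial and the 20 highest genes, DESeq2, limma-voom, a minimum of 50 counts in 3 libraries (where TGFBI was not tested), all genes with any count, the length trend removed, an adjusted p of 0.01 and the replicate block. Leaving out 1 library gave 4 to 8, with 8 without TTC3 shRNA replicate 1. THBS1, SMAD3, TGFB2 and TGFB1 kept direction and call in all 16 alternatives, with log2 fold changes of -2.17 to -1.95, -1.29 to -1.08, -1.44 to -1.23 and 0.60 to 0.89. The SMAD4 fold change changed sign with the length trend removed (0.0592), and with 1 library left out it ran from -0.128 to 0.0166, above 0 without TTC3 shRNA replicate 2 (0.00724) or 3. That of TGFBI ran from -0.594 to 0.118, above 0 without control replicate 1. The cause was not tested. Removing the length trend moved the median of all genes to -0.14. Pathway genes past the test were 64, and 47 to 88 with 1 library left out. All genes past the test were 8165, 4082 at an adjusted p of 0.01 and 4546 to 13739 with 1 library left out. The 13739 came without TTC3 shRNA replicate 1. Member transcripts past the test were 4, and 1 to 7 with 1 library left out. With the replicate block, edgeR called 0 of these transcripts, against 5 of the 10 genes. Deviations from the group means correlated at 0.136, 0.123 and 0.0322 for replicate numbers 1, 2 and 3, and control replicate 3 correlated slightly better with TTC3 shRNA replicate 2 (0.0363), so the libraries were taken to share only a number. With the block 6929 genes passed. Ratios within a library kept their direction under each alternative run, with the SMURF2 over SMURF1 difference falling from 0.13 to as little as 0.0137. SMAD7 did not pass in any alternative, with log2 fold changes of -0.41 to -0.17.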
